A study of Mus musculus with 12 samples.

Results

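Tumour necrosis factor (TNF) superfamily ligands were described in single-cell 3' RNA profiles of CD4 T cells from mice that had received Th1 cells. The 8 ligand genes Tnf, Lta, Ltb, Tnfsf8, Tnfsf10, Tnfsf11, Tnfsf14 and Fasl were taken by symbol from the 18601 genes of the matrix, and all 8 passed the expression filter of each comparison made below. Values are unique molecular identifier (UMI) counts summed over the cells of a library and scaled by the total UMIs of those cells to CPM. Of 32763 cells, 29623 were CD3-positive (3 or more UMIs of Cd3d, Cd3e and Cd3g together), 2248 were CD3-low (1 or less) and 892 lay between.

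The KO groups came from recipients of Il23r eGFP/eGFP Th1 cells, and the control groups from recipients of Il23r wt/eGFP Th1 cells. Both thus carry an eGFP allele at Il23r, the gene of the interleukin-23 receptor chain, and both are CD4 T cells after transfer of Th1 cells, a helper subset marked by interferon gamma production. Colon lamina propria and spleen had 2 KO and 2 control libraries each. Colon epithelium and small intestinal lamina propria (SI) had 1 KO and 1 control library each. The strain, age and lymphocyte status of the recipients are not given in the sources used here, nor is whether replicates came from separate animals. All p-values therefore measure the spread between these libraries, which may be technical.

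TNF superfamily ligands are trimers, mostly made as membrane proteins, that bind receptors of the TNF receptor superfamily and signal through TRAF adaptors to NF-kB or, for receptors with a death domain, to cell death. Tnf and Lta bind both TNF receptors, while Ltb anchors Lta at the membrane as the ligand of the lymphotoxin beta receptor, which organises lymphoid tissue. Tnfsf14 (LIGHT) binds that receptor and Tnfrsf14, Tnfsf8 (CD30 ligand) binds Tnfrsf8, Tnfsf11 (RANKL) binds Tnfrsf11a, Fasl binds Fas and Tnfsf10 (TRAIL) binds Tnfrsf10b. In the gut, RANKL guides M cell formation, lymphotoxin supports lymphoid follicles, and blocking TNF is a treatment of colitis.

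Ltb, Tnf and Lta lie next to each other on chromosome 17 within 10913 bases (mm10, chr17:35194439-35205351), Ltb on the plus strand and Tnf and Lta on the minus strand. The windows directly upstream of these neighbours are shown because their levels differed in pattern between tissues. Those of Tnfsf8 (chr4:63861348-63861534, minus strand), Tnfsf11 (chr14:78308044-78308293, minus strand) and Fasl (chr1:161788496-161788745, minus strand) are shown because these genes were higher together in colon lamina propria than in spleen, and that of Tnfsf14 because it went the other way. The windows are from RefSeq (GRCm38.p6), up to 250 bases and outside annotated genes, read 5′ to 3′ on the strand of the gene. Capitals mark matches to the NF-kB motif or an AP-1 motif (TGANTCA), searched on both strands.
Tnf: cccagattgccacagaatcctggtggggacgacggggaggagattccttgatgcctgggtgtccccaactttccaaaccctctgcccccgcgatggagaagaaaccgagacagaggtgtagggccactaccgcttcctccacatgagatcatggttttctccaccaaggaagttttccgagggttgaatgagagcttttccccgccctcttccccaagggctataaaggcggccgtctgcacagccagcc
Lta: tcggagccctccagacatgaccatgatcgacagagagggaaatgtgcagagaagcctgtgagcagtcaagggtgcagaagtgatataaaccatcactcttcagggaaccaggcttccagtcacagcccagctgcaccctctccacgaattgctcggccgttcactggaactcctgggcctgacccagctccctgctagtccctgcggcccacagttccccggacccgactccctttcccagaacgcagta
Ltb: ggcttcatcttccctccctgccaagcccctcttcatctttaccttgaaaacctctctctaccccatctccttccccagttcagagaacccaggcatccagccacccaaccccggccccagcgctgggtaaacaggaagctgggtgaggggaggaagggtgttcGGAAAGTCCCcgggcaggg
Tnfsf14: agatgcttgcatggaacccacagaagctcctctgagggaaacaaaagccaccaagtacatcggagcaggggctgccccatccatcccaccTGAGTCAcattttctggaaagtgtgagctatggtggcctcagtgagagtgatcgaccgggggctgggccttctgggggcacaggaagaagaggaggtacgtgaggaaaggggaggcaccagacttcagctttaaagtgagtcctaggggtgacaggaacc
Tnfsf8: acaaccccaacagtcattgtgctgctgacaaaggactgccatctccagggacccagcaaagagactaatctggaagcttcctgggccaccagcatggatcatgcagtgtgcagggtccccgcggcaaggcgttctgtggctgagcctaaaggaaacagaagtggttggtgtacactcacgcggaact
Tnfsf11: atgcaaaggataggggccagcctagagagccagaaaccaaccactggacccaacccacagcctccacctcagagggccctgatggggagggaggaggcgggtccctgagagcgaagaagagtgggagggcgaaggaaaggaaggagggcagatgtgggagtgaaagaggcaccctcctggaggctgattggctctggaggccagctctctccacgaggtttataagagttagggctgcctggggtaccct
Fasl: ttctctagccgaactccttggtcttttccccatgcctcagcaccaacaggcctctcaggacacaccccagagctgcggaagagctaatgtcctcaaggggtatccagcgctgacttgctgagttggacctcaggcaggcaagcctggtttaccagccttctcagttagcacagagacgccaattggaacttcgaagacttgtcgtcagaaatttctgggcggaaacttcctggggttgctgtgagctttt
The NF-kB motif was found in the Ltb window and the AP-1 letters in the Tnfsf14 window, and in no other of the 8. Across 32851 promoter windows of 250 bases, 0.356% held the NF-kB motif and 6.75% the AP-1 letters. The NFAT core GGAAA, which overlaps the NF-kB match in Ltb, stood in all 8 windows and in 55.6% of promoters. The T-box letters GGTGTGA (3.33% of promoters) and the RUNX letters ACCACA (14.0%) stood in none of the 8. These matches describe letters only.

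The libraries held 981 to 4079 cells and 3107528 to 14292028 UMIs, with a median of 1863 to 5711 UMIs per cell. Cd4 was at 200 to 386 CPM in CD3-positive cells, and 5 of 8 genes of a T cell list summed to 2375 to 2711 CPM. Cd8a and Cd8b1 together reached at most 21.9 CPM. Il23r was at 0.314 to 4.20 CPM in KO and 0.605 to 3.09 CPM in control CD3-positive cells. These are 3' tags, and the sources used here do not give where the eGFP allele interrupts the gene, so this level does not check the genotype. The epithelial list (7 genes) summed to 360 CPM in CD3-positive cells of the colon epithelium KO library, against 24.1 CPM in the control library. The erythroid list (5 genes) was at 1509 CPM in the first colon lamina propria control library and at most 217 CPM elsewhere. In all, 677 cell barcodes occurred in more than 1 library, with 1 to 27 shared by any 2 libraries (median 9). The part of these differences in the results below was not tested beyond the values given without a library.

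In CD3-positive cells, the order of levels across tissues was not the same for all ligands, though some shared it. Tnfsf11, Tnfsf8 and Fasl were highest in colon lamina propria and lowest in spleen. Tnf, Lta and Tnfsf10 were highest in colon epithelium. Tnfsf14 was high in colon epithelium and spleen and low in both lamina propria tissues, and Ltb overlapped between all 4 tissues.

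Tnf averaged 67.1 CPM in colon epithelium (59.1 KO, 75.0 control) and 15.2 CPM in SI (17.3 KO, 13.2 control). It was at 12.2 and 24.6 CPM in KO and 13.5 and 8.90 CPM in control libraries of colon lamina propria. Spleen gave 22.7 and 14.6 CPM in KO and 14.6 and 18.0 CPM in control libraries. Colon epithelium lay above all other libraries, and the other 3 tissues overlapped.

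Lta, the lymphotoxin subunit shared by the soluble and the membrane form, was at 33.5 CPM in the KO and 23.7 CPM in the control library of colon epithelium. SI had 4.73 CPM (9 UMIs) in the KO and 6.50 CPM in the control library. Colon lamina propria gave 5.81 and 18.0 CPM in KO and 4.54 and 9.52 CPM in control, and spleen gave 12.6 and 10.2 CPM in KO and 10.2 and 7.26 CPM in control. Colon epithelium was again above all other libraries, and the 2 SI libraries lay below those of spleen and within the range of colon lamina propria.

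Ltb, whose product holds lymphotoxin at the cell surface, was at 593 CPM in the KO and 870 CPM in the control library of colon epithelium, and at 548 and 775 CPM in those of SI. In colon lamina propria the KO libraries had 315 and 611 CPM and the control libraries 296 and 750 CPM. Spleen had 633 and 774 CPM in KO and 620 and 789 CPM in control libraries. The split in colon lamina propria followed the replicate number, which is also the batch in the cell table. Both replicate 1 libraries of that tissue lay below every other library, and no pair of tissues was separated. Other ligands split by replicate number too. In colon lamina propria both replicate 1 libraries lay below both replicate 2 libraries for Lta and Tnfsf10, and above them for Tnfsf8. In spleen the replicate 1 libraries lay below for Ltb and Fasl, and narrowly above for Lta. SI and colon epithelium have replicate 2 alone.

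Tnfsf14 had 23.4 CPM in the KO and 27.7 CPM in the control library of colon epithelium, and 12.1 and 10.6 CPM in those of SI. Colon lamina propria gave 11.1 and 10.97 CPM in KO and 9.80 and 7.67 CPM in control. Spleen gave 22.7 and 23.6 CPM in KO and 27.2 and 19.9 CPM in control. The lamina propria libraries of both organs lay below every epithelial and splenic library, which overlapped each other.

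Tnfsf8, the ligand of CD30, had 133 CPM in the KO and 106 CPM in the control library of colon epithelium, and 486 and 234 CPM in those of SI. Colon lamina propria had 587 and 419 CPM in KO and 860 and 298 CPM in control libraries. Spleen had 101 and 69.4 CPM in KO and 66.5 and 72.7 CPM in control libraries. SI and colon lamina propria overlapped, while colon epithelium lay below both and just above spleen.

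Tnfsf11 was at 71.7 CPM in the KO and 64.4 CPM in the control library of colon epithelium, and at 104 and 61.1 CPM in those of SI. KO libraries of colon lamina propria had 234 and 243 CPM, and control libraries 271 and 99.2 CPM. Spleen had 21.9 and 20.1 CPM in KO and 15.2 and 19.98 CPM in control libraries. All gut libraries were above all spleen libraries, colon epithelium and SI overlapped, and the second colon lamina propria control library fell within the SI range.

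Fasl, the death ligand of cytotoxic lymphocytes, had 119 CPM in the KO and 146 CPM in the control library of colon epithelium, and 138 and 156 CPM in those of SI. It was at 213 and 233 CPM in KO and 226 and 150 CPM in control libraries of colon lamina propria. Spleen had 30.8 and 41.5 CPM in KO and 29.2 and 43.9 CPM in control libraries. The gut tissues were far above spleen, SI overlapped both colon compartments, and colon epithelium lay below colon lamina propria by a narrow margin.

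Tnfsf10 was at 36.7 CPM in the KO and 29.4 CPM in the control library of colon epithelium, and at 14.2 and 23.1 CPM in those of SI. Colon lamina propria had 6.42 and 17.6 CPM in KO and 9.09 and 14.99 CPM in control libraries, and spleen had 11.3 and 12.4 CPM in KO and 7.39 and 9.34 CPM in control libraries. Colon epithelium was above all others, SI was above spleen, and colon lamina propria overlapped both SI and spleen.

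**Figure D1:**
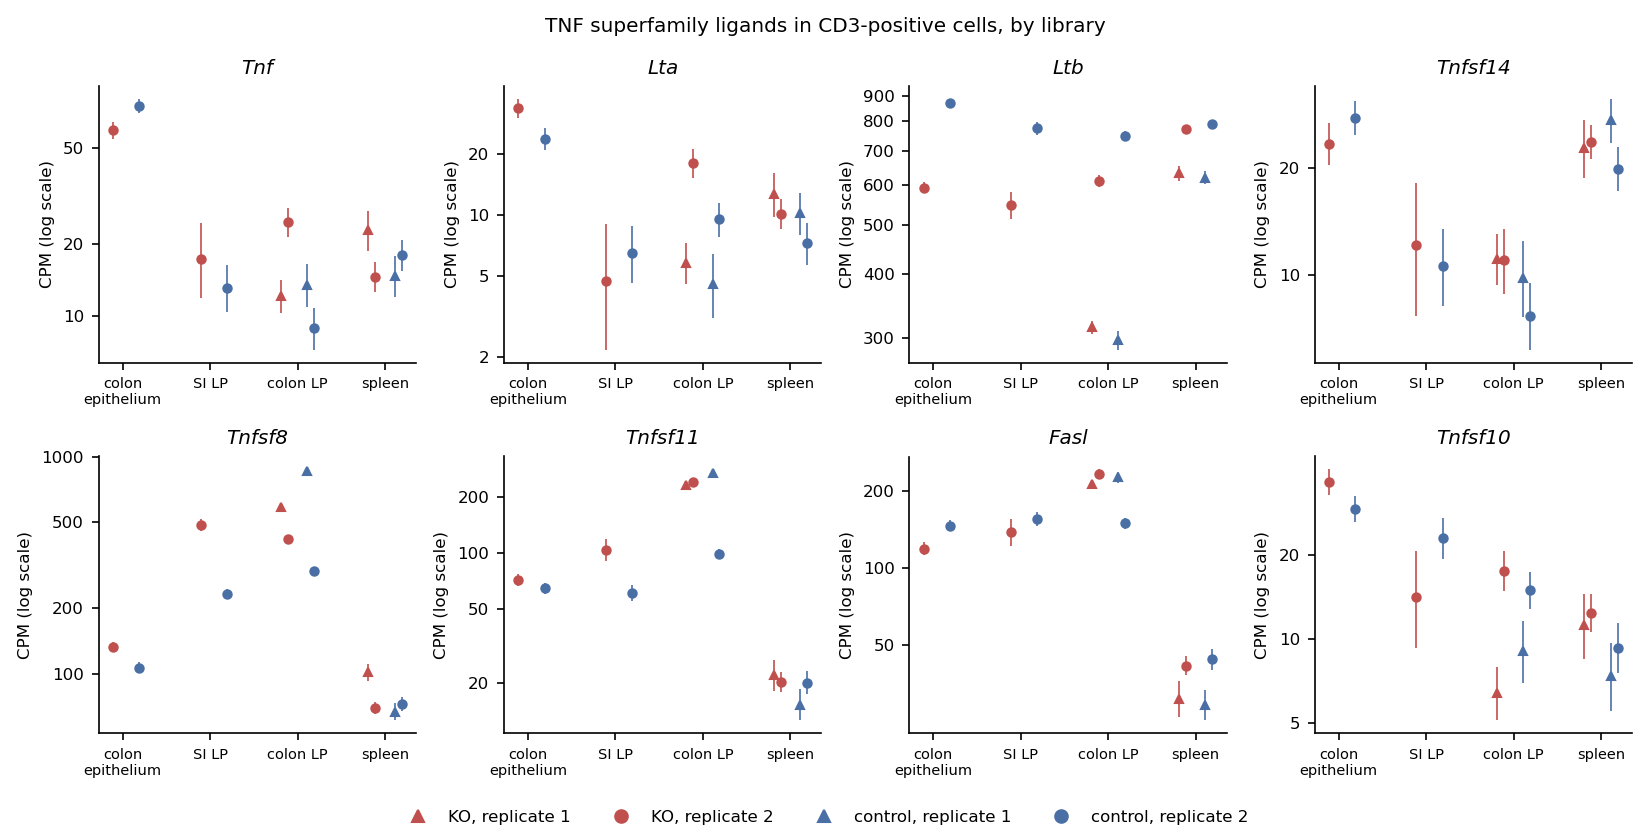
CPM of each ligand in CD3-positive cells of the 12 libraries on a log scale, by tissue (LP, lamina propria; SI, small intestine), with KO in red left of control in blue, triangles for replicate 1, circles for replicate 2 and bars for exact Poisson 95% intervals of the counts. Tnf in colon epithelium (59.1 and 75.0 CPM) sits above all other libraries, while Tnfsf11 in colon lamina propria (99.2 to 271 CPM) sits above spleen (15.2 to 21.9 CPM).

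The tissues were compared with edgeR's quasi-likelihood test over all 12 libraries, with genotype as a further term and Benjamini-Hochberg adjustment over 11305 genes. Between colon lamina propria and spleen, 37.6% of all genes passed an adjusted p of 0.05 (18.7% higher in colon, 18.9% lower). Of the 8 ligands, 3 were higher and 1 was lower in colon lamina propria. Their median log2 fold change was 0.25, against -0.04 over all genes tested.

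Tnfsf11 was 12.9-fold higher in colon lamina propria than in spleen (log2 fold change 3.69 ± 0.32 SE, edgeR adjusted p = 2.22e-05). Tnfsf8 was 8.40-fold higher (3.07 ± 0.40, adjusted p = 0.000381) and Fasl 6.59-fold higher (2.72 ± 0.20, adjusted p = 2.87e-06), in all 4 colon libraries against all 4 spleen libraries for each of these genes. Tnfsf14 was 2.04-fold lower (-1.03 ± 0.19, adjusted p = 0.00131), also without overlap, though its share of splenic cells was not separable from that in erythroid-marker cells (4.08% of 49 cells). These 4 calls held in all 20 alternative settings. The log2 fold changes of Tnf (-0.06), Lta (0.07), Ltb (-0.34, adjusted p = 0.286) and Tnfsf10 (0.43, adjusted p = 0.228) did not pass. Without the first colon lamina propria KO library, Tnfsf10 passed (0.67, adjusted p = 0.0407).

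Between colon epithelium and colon lamina propria, 19.4% of genes passed (8.52% higher in epithelium, 10.8% lower), and 7 of the 8 ligands did. Their median log2 fold change was 0.70, against 0.04 over all genes. Tnf was 3.89-fold higher in epithelium (log2 1.96 ± 0.31, edgeR adjusted p = 0.00294), Lta 2.56-fold higher (1.36 ± 0.36, adjusted p = 0.0248), Tnfsf10 2.29-fold higher (1.20 ± 0.31, adjusted p = 0.0214) and Tnfsf14 2.12-fold higher (1.09 ± 0.22, adjusted p = 0.00684). Tnfsf8 was 5.74-fold lower (-2.52 ± 0.51, adjusted p = 0.0105), Tnfsf11 3.82-fold lower (-1.93 ± 0.39, adjusted p = 0.00847) and Fasl 1.90-fold lower (-0.93 ± 0.24, adjusted p = 0.0208). Ltb did not pass (0.31, adjusted p = 0.465). The tumour necrosis factor gene itself and the lymphotoxin alpha gene were thus higher in the compartment where the CD30 ligand, RANKL and Fas ligand genes were lower.

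The epithelial side rests on 2 libraries of replicate number 2. Without the epithelium control library, 777 genes passed in place of 2188 and the adjusted p of Lta (0.116), Tnfsf8 (0.0880), Tnfsf10 (0.0919), Tnfsf11 (0.0579), Tnfsf14 (0.101) and Fasl (0.0604) no longer did. Without the epithelium KO library, which held the epithelial markers, 230 genes passed, and Lta (0.182), Tnfsf8 (0.130), Tnfsf10 (0.193), Tnfsf11 (0.130) and Fasl (0.255) did not. Without the first colon lamina propria KO library 1344 genes passed, and Fasl was at 0.0504 without it and at 0.0504 without the first control library of that tissue. Within the libraries of replicate number 2 alone, Tnf was at 1.89 (adjusted p = 0.0830), Tnfsf11 at -1.41 (0.0602) and Fasl at -0.72 (0.107). Over all cells in place of CD3-positive cells, 3 calls were lost, those of Lta (0.68, adjusted p = 0.471), Tnfsf14 (0.98, 0.0516) and Fasl (-0.89, 0.0761). The directions of these 7 genes held in the settings named here.

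Between SI and colon lamina propria, 1 of 11305 genes (0.00885%) passed edgeR's test, and 1279 had an unadjusted p under 0.05. None of the ligands passed. Tnfsf11 had the largest change, -1.55 ± 0.38 (adjusted p = 0.284), and Fasl followed by p (-0.63 ± 0.24, adjusted p = 0.373). DESeq2 called 103 genes there, Tnfsf11 among them (-1.57, adjusted p = 0.0034), and without the second colon lamina propria control library edgeR called Tnfsf11 too (-1.78, adjusted p = 0.0103).

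**Figure D2:**
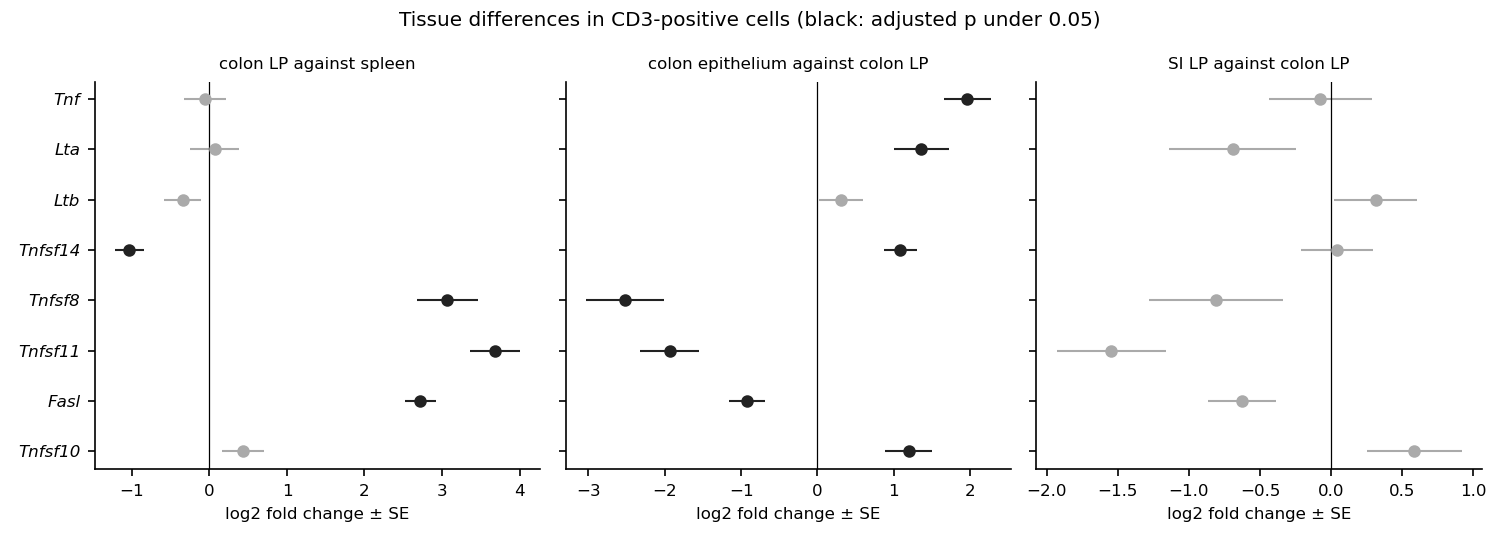
Log2 fold changes (horizontal axis, points, with SE bars) of the 8 ligands in CD3-positive cells for colon LP against spleen, colon epithelium against colon LP and SI LP against colon LP, black where the edgeR adjusted p was under 0.05 and grey otherwise. Tnfsf8, Tnfsf11 and Fasl lie right of 0 in the first panel (3.07, 3.69 and 2.72) and left of 0 in the second (-2.52, -1.93 and -0.93), and Tnf lies at 1.96 in the second.

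Receptors, other ligands and signalling genes of the pathway were counted from lists. In colon lamina propria against spleen, where 18.7% of all genes were higher and 18.9% lower, 4 of 5 tested receptors of the 8 ligands were higher and none lower, led by the TNF receptor Tnfrsf1b (log2 2.81 ± 0.28), the TRAIL receptor Tnfrsf10b (2.35 ± 0.40) and Fas (1.23 ± 0.19). Of 8 other TNF receptor superfamily genes, 4 were higher and 2 lower, with the T cell costimulators Tnfrsf4 (OX40, 3.83 ± 0.25), Tnfrsf9 (4-1BB, 3.48 ± 0.47) and Tnfrsf18 (GITR) among those higher. Other ligands gave 2 higher of 5, Cd40lg (1.34 ± 0.26) and Tnfsf9 (0.77 ± 0.21). Of 14 adaptor, death and NF-kB signalling genes, 8 were higher and 5 lower. The NF-kB feedback inhibitor Tnfaip3 (5.24 ± 0.21), Traf1 (2.52 ± 0.17) and Birc3 (2.33 ± 0.12) were higher.

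In colon epithelium against colon lamina propria the same lists gave fewer higher than lower genes, as did all genes (8.52% higher, 10.8% lower). Receptors of the ligands had 2 lower of 5 (Tnfrsf10b -1.95 ± 0.48, Tnfrsf1b -1.62 ± 0.35) and none higher, and other receptors 3 lower and 1 higher of 8. Tnfrsf4 was at -2.89 ± 0.32 and Tnfrsf18 at -1.49 ± 0.27, while Tnfrsf13c, the BAFF receptor, was at 2.05 ± 0.44. Of the adaptors 7 were lower and 4 higher, with Tnfaip3 at -2.56 ± 0.24, Birc3 at -1.89 ± 0.15 and Traf1 at -1.75 ± 0.22. Cd40lg was the only other ligand called of 5 (-1.19 ± 0.32). Among 9 genes of ligand shedding and mRNA decay, Zfp36l2 (-1.64 ± 0.31) and Zfp36l1 (-0.84 ± 0.18) were lower and none was higher. In colon lamina propria against spleen that list had 2 higher (Zfp36l1 1.59 ± 0.15, Zfp36l2 1.33 ± 0.24) and 3 lower, among them Adam17, the protease that sheds TNF (-0.54 ± 0.13).

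To see how widely each ligand was detected, every CD3-positive cell was thinned to 1500 UMIs, leaving out 3973 shallower cells of all classes. A lower sum can reflect fewer cells with transcript or less transcript per cell, and these shares bear on the first. Tnfsf11 was detected in a median of 9.16% of cells per library in colon epithelium, 9.35% in SI, 23.1% in colon lamina propria and 3.02% in spleen. Tnfsf8 was detected in 12.1%, 24.9%, 34.9% and 10.4% in the same order of tissues, and Fasl in 18.7%, 19.3%, 27.5% and 5.36%. Ltb was found in 56.8%, 54.7%, 41.8% and 59.3%. Tnf was found in 6.90%, 1.996%, 1.80% and 2.35%, Lta in 3.37%, 0.702%, 0.988% and 1.32%, Tnfsf10 in 5.20%, 3.01%, 1.64% and 1.71%, and Tnfsf14 in 3.79%, 1.90%, 1.44% and 4.21%. For Tnfsf11, Tnfsf8 and Fasl the order of the 4 tissues by share was that of their mean CPM, and colon epithelium came first for Tnf on both measures.

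CD3-low cells with epithelial or erythroid markers were taken as the background, though whether these cells lack the ligand transcripts was not tested. Among 59 CD3-low cells of colon epithelium with epithelial markers (median depth 2445 UMIs, against 2628 in CD3-positive cells), 0 had a UMI of 7 of the ligands, which allows a share of up to 5.08%, and 3.39% had one of Tnfsf10. The epithelial shares of Tnf, Ltb, Tnfsf8, Tnfsf11 and Fasl were above that limit, while those of Lta, Tnfsf10 and Tnfsf14 were not separable from it. Among 49 erythroid-marker cells of spleen (median 3408 UMIs, against 2985 in CD3-positive cells), 30.6% had a UMI of Ltb, against 61.4% of splenic CD3-positive cells. Tnf was found in 4.08% of them against 2.44%, Lta in 6.12% against 1.33%, Tnfsf14 in 4.08% against 3.83%, Tnfsf8 in 4.08% against 10.6% and Tnfsf11 in 2.04% against 3.03%. No erythroid-marker cell had a UMI of Tnfsf10 (1.70% of CD3-positive cells) or Fasl (5.70%), which allows up to 6.12%. In spleen the share of Ltb alone was thus above this background beyond counting error, and those of the other 7 ligands were not separable from it at this number of cells.

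Between KO and control, none of the 8 ligands passed in any test. Over the libraries of the 6 pairs, fitted with tissue but not the pair as a term, edgeR called 0 of 11305 genes (0%). Of these genes 525 had an unadjusted p under 0.05, and 3 passed in DESeq2. The fit of 10976 genes over spleen and colon lamina propria likewise had no replicate term. In it edgeR called 0 genes (0%) in colon lamina propria (123 at an unadjusted p under 0.05), 0 in spleen (128) and 0 for the difference between the tissues (114). DESeq2 called 0, 3 and 2 there. The ligands' log2 fold changes over the 6 pairs were 0.43 ± 0.26 for Lta, 0.34 ± 0.24 for Tnfsf11, 0.27 ± 0.23 for Tnf, 0.24 ± 0.30 for Tnfsf8, 0.10 ± 0.22 for Tnfsf10, 0.08 ± 0.15 for Tnfsf14, -0.01 ± 0.15 for Fasl and -0.23 ± 0.20 for Ltb. The smallest unadjusted p was 0.136, for Lta, and every adjusted p was 0.9999. Their median was 0.17, against 0.00 over all genes.

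The pairs differed from each other by more than their counting error. In colon lamina propria Tnf was 2.76 times as high in KO as in control in the pair of replicate 2 (95% interval 2.17 to 3.54, counting error only), but 0.901 times as high in the pair of replicate 1 (0.695 to 1.17). Tnfsf11 had ratios of 2.45 (2.27 to 2.63) in the pair of replicate 2 and 0.863 (0.815 to 0.914) in that of replicate 1. For Tnfsf8 they were 1.40 and 0.683, and for Fasl 1.56 and 0.940. Ltb went the other way, at 0.814 and 1.06. Lta was higher in KO in both pairs of colon lamina propria (1.89 and 1.28) and both of spleen (1.40 and 1.24), in each tissue with replicate 2 first. The interval left out 1 for replicate 2 alone in either tissue.

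SI and colon epithelium have 1 library per genotype, so the difference has no replicate check there. In SI, Tnfsf8 was 2.08 times as high in KO as in control (1.91 to 2.26) and Tnfsf11 1.70 times (1.43 to 2.03). Ltb was at 0.706 and Tnfsf10 at 0.615 of the control level, and for the other 4 ligands the interval held 1. In epithelium Lta was at 1.42 (1.20 to 1.67), Tnfsf8 and Tnfsf10 at 1.25 each and Tnfsf11 at 1.11. Fasl was at 0.812, Tnf at 0.788 and Ltb at 0.681 (0.659 to 0.704), and the interval of Tnfsf14 alone held 1. The Ltb ratio was below 1 in all 4 pairs of replicate 2, although its interval held 1 in spleen (0.952 to 1.01).

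**Figure D3:**
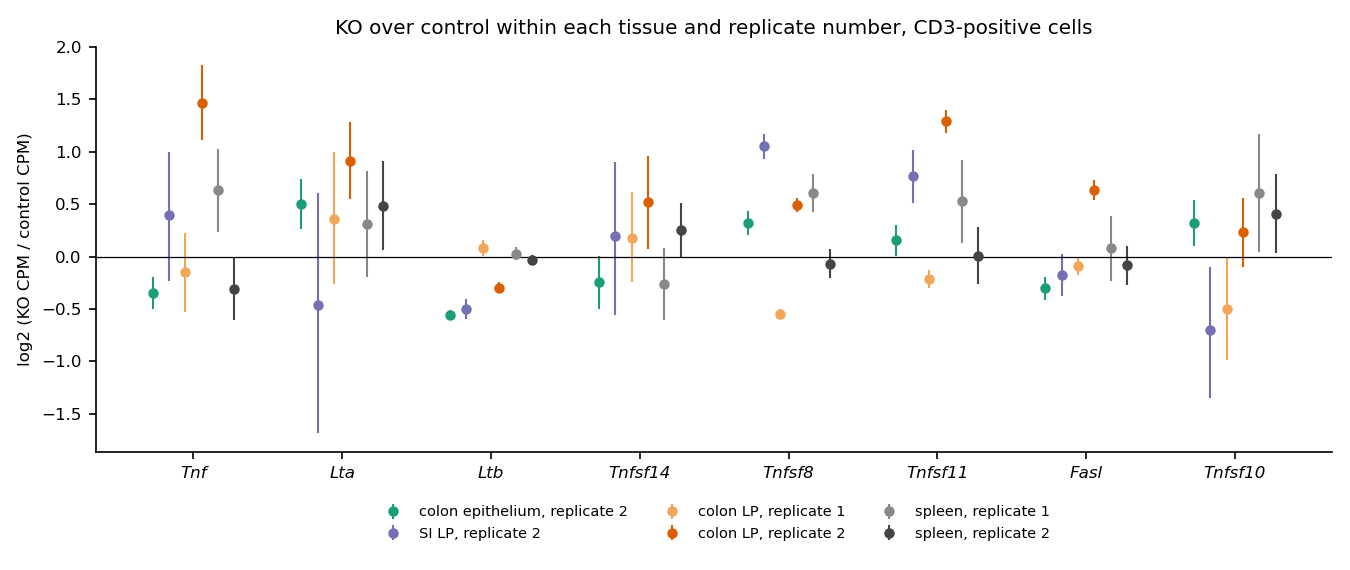
Log2 ratio of KO to control CPM in CD3-positive cells for each pair of libraries of the same tissue and replicate number, with exact conditional 95% intervals of the counts. The ratios of Tnf run from 0.788 in colon epithelium to 2.76 in colon LP replicate 2, and those of Tnfsf11 from 0.863 in colon LP replicate 1 to 2.45 in replicate 2.

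CD3-low cells made up 0.835% (colon epithelium control) to 42.5% (SI KO) of a library, so their values rest on fewer UMIs. They were set against CD3-positive cells of the same library in edgeR with the library as a term. Of 11352 genes, 46.4% passed (26.5% higher in CD3-low cells, 19.9% lower). Of the 8 ligands 3 were higher and 3 lower, with a median log2 fold change of 0.26, against 0.04 over all genes. CD3 genes chose the classes and were not tested.

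Lta ran from 0 to 303 CPM in CD3-low cells (median 85.5), against 4.54 to 33.5 CPM (median 9.84) in CD3-positive cells. It was higher in the CD3-low cells of 10 of 12 libraries, the exceptions being both colon epithelium libraries, where the control had 0 UMIs (up to 58.1 CPM allowed) and the KO 28.2 CPM. The log2 fold change was 3.33 ± 0.51, 10.1-fold (edgeR adjusted p = 0.000194). Tnf ran from 17.5 to 213 CPM (median 55.8) in CD3-low and from 8.90 to 75.0 CPM (median 16.0) in CD3-positive cells. It was higher in CD3-low cells in 12 of 12 libraries, 2.70-fold (1.43 ± 0.24, edgeR adjusted p = 9.88e-05). The CD3-low interval held the CD3-positive level in the SI control (3 UMIs) and second spleen control (7 UMIs) libraries. The same held for the second colon lamina propria KO (13 UMIs) and the colon epithelium KO (30 UMIs) library. In these libraries the direction of Tnf is not resolved. Tnfsf14 was also higher (0.88 ± 0.32, adjusted p = 0.0333), in 9 of 12 libraries, but this call was lost in 10 of 17 alternatives.

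Fasl ran from 4.92 to 96.8 CPM (median 33.2) in CD3-low and from 29.2 to 233 CPM (median 142) in CD3-positive cells. It was lower in CD3-low cells in 12 of 12 libraries, 4.11-fold (-2.04 ± 0.18, edgeR adjusted p = 2.31e-08). The CD3-low interval held the CD3-positive level in the colon epithelium control (5 UMIs) and second spleen control (7 UMIs) libraries, where the direction is not resolved. Tnfsf10 passed as lower (-0.94 ± 0.26, adjusted p = 0.00518), with medians of 5.82 CPM in CD3-low and 13.3 CPM in CD3-positive cells. Its CD3-low cells had 3 or fewer UMIs in 8 of 12 libraries, and the 0 UMIs of the colon epithelium control library allow up to 58.1 CPM, against 29.4 CPM in its CD3-positive cells, so the direction in single libraries is not resolved. Tnfsf8 was lower in 10 of 12 (-1.09 ± 0.38, adjusted p = 0.0345), a call lost in 4 of 17 alternatives. Ltb (0.25 ± 0.31, adjusted p = 0.550) and Tnfsf11 (0.28 ± 0.34, adjusted p = 0.542) did not pass. Tnfsf11 was as high as 609 CPM in the CD3-low cells of the first colon lamina propria KO library, against 234 CPM in its CD3-positive cells, and as low as 5.57 CPM in those of the second spleen KO library.

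**Figure D4:**
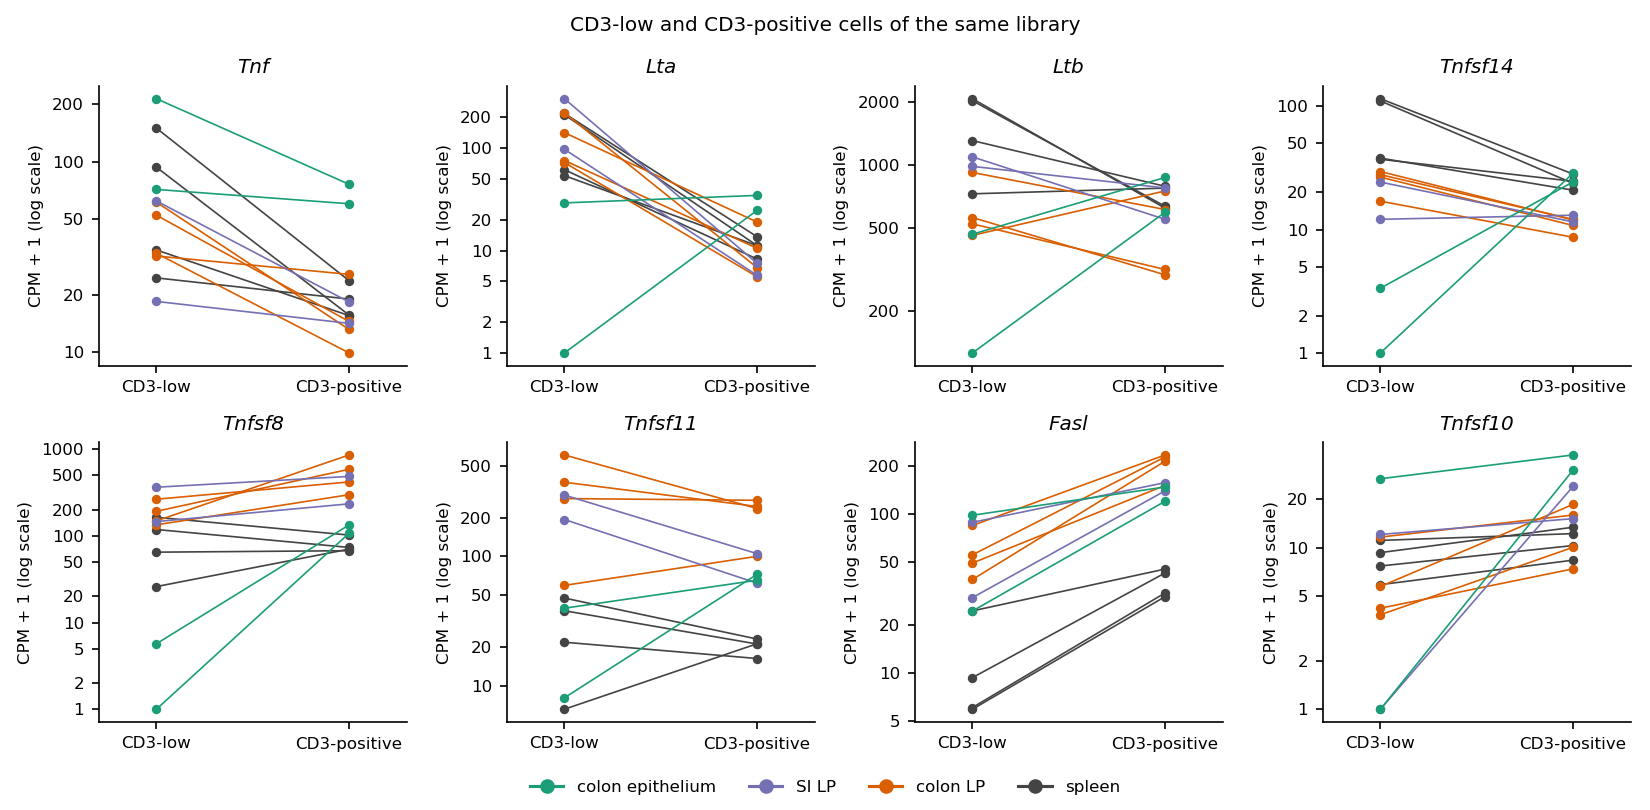
CPM + 1 of each ligand on a log scale in CD3-low cells (left) and CD3-positive cells (right), with 1 line per library coloured by tissue. The lines of Tnf slope down to the right in all 12 libraries and those of Fasl slope up in all 12. Those of Lta slope up in both colon epithelium libraries and down in the other 10.

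The CD3-low class is a mixture. By 3 or more UMIs of a marker list, 643 of the 2248 cells carried innate lymphoid markers (290 in spleen, 149 in colon lamina propria, 189 in SI and 15 in colon epithelium), 88 epithelial, 57 erythroid, 20 macrophage, 16 basophil or mast cell, 6 neutrophil and 1 B cell markers, and 1417 none of these. Of the list that chose the 643 cells, Kit had a UMI in 53.0% of them, Gata3 in 43.1%, Il23r in 29.7%, Tyrobp, which natural killer and myeloid cells also express, in 28.1%, Il1r1 in 24.6%, Arg1 in 14.3% and Ncr1 in 8.86%. These shares restate the choice and do not identify the cells. The T cell list had a UMI in 72.3% of these cells, at a median of 2, so T cells with few CD3 UMIs are not separated from them. The cut is a range, with 186 cells at exactly 3 UMIs of the list and 272 CD3-low cells at 2, and 1377 CD3-positive cells (4.65%) also reached 3.

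These 643 cells held 57.9% of the Tnf UMIs of all CD3-low cells and 49.8% of the Lta UMIs. They were 28.6% of CD3-low cells but deeper, with a median of 3705 UMIs, against 1428 in cells with none of the lists. Their share of all CD3-low UMIs is not given here, and whether their Tnf and Lta shares exceed it was not tested. Summed, the 643 cells had 1492 CPM of Ltb, 215 CPM of Tnfsf11, 179 CPM of Lta, 124 CPM of Tnfsf8, 103 CPM of Tnf, 62.3 CPM of Tnfsf14, 14.2 CPM of Fasl and 6.54 CPM of Tnfsf10. Within them Tnfsf11 was at 331 CPM (95% interval 283 to 386) in SI, 545 CPM (490 to 606) in colon lamina propria and 32.1 CPM (23.4 to 42.9) in spleen. Fasl was at 10.1, 37.4 and 1.43 CPM in the same order, the last from 2 UMIs. Tnfsf14 was at 14.1 CPM in SI, 39.0 CPM in colon lamina propria and 92.0 CPM in spleen, while Lta differed less, at 119, 237 and 173 CPM. Among these 3 tissues, RANKL and Fas ligand transcripts in these cells had the same top and bottom tissue as in CD3-positive cells, as a description with no test, and the 15 cells of colon epithelium are too few for a value. The 88 cells with epithelial markers had 0 UMIs of Lta, Tnfsf8 and Tnfsf14 and 1 UMI of Tnf.

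Some other TNF family genes separated the classes by more than any of the 8 ligands, and others by less. In CD3-low cells Tnfsf12 (TWEAK, 7.27 ± 0.58) and Tnfsf4 (OX40 ligand, 3.46 ± 0.46) were higher and Cd40lg lower (-2.56 ± 0.34), with 2 of 6 tested other ligands called each way. Of 6 receptors of the 8 ligands, the lymphotoxin beta receptor Ltbr (5.68 ± 0.57) and the RANKL receptor Tnfrsf11a (5.41 ± 0.50) were higher, and 2 were lower, Fas among them (-1.61 ± 0.24). Other receptors gave 4 higher and 3 lower of 10, with Tnfrsf21 (5.35 ± 0.53) higher and Tnfrsf4 (-2.75 ± 0.36) and Tnfrsf18 (-1.32 ± 0.22) lower. Of 14 adaptors none was higher and 3 were lower, led by Traf5 (-1.39 ± 0.23). Zfp36, which destabilises Tnf mRNA, was higher (1.66 ± 0.30), as were 3 others of its list of 9, and 2 were lower.

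Within CD3-positive cells, the ligands were set against cytokine and activation genes by splitting the cells of each library, thinned to 1500 UMIs, on 1 gene. Cells with a UMI of Ifng, the Th1 cytokine, were compared with the other cells in 12 libraries, and 4.43% of 8512 genes passed edgeR's test (2.24% higher in Ifng-detected cells, 2.19% lower). Tnf ran from 9.26 to 173 CPM (median 23.6) in Ifng-detected cells and from 8.75 to 47.8 CPM (median 14.9) in the others. It was higher in Ifng-detected cells in 10 of 12 libraries, with a log2 fold change of 1.26 ± 0.26 (edgeR adjusted p = 0.0133). The 2 exceptions were the first spleen KO and the SI KO library, each with 2 Tnf UMIs on the Ifng-detected side. The first spleen control library, which was among those higher, had 3 there.

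Fasl was also higher in Ifng-detected cells, at 37.0 to 286 CPM (median 188) against 22.9 to 254 CPM (median 135), in 10 of 12 libraries (0.31 ± 0.07, edgeR adjusted p = 0.000862). The exceptions were the second spleen control (8 UMIs, 38.1 against 43.5 CPM) and second colon lamina propria KO library (234 UMIs, 235 against 254 CPM). The first spleen KO and control libraries, among those higher, had 4 and 5 UMIs. The calls of Tnf and Fasl held in all 16 alternatives. Lta (0.65 ± 0.21, adjusted p = 0.0934) and Tnfsf14 (0.42 ± 0.15, adjusted p = 0.122) did not pass, though Lta did in 5 of 15 alternatives. From the lists, Tnfsf9 (4-1BB ligand, 1.17 ± 0.15), Zfp36 (0.81 ± 0.18), Tnfaip3 (0.42 ± 0.05) and Fas (0.37 ± 0.08) were higher in Ifng-detected cells and Cd27 was lower (-0.40 ± 0.08).

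Cells with a UMI of Nr4a1, an early gene of T cell receptor signalling, were compared in the 9 libraries with at least 20 such cells. Of 8212 genes, 1.07% passed (0.889% higher in Nr4a1-detected cells, 0.183% lower) and no ligand did. Tnf ran from 8.98 to 330 CPM (median 28.2) in Nr4a1-detected cells and from 7.16 to 56.0 CPM (median 12.3) in the others. It was higher in 8 of 9 libraries (1.41 ± 0.35, edgeR adjusted p = 0.183), and passed without the colon epithelium control library (0.77 ± 0.16, adjusted p = 0.000452) and with DESeq2 (1.12, adjusted p = 0.00713). Tnfsf14 was also higher in 8 of 9 libraries, at 6.73 to 106 CPM (median 14.8) against 6.94 to 26.1 CPM (median 11.2). It did not pass (1.09 ± 0.27, edgeR adjusted p = 0.0638), but did in 4 of 13 alternatives. The second spleen KO library, among those higher for both genes, had 1 UMI of each on the Nr4a1-detected side. Tnfsf14 was near equal in the second colon lamina propria KO library (12.74 against 12.69 CPM). It differed most in colon epithelium (79.4 against 21.9 CPM in KO, 106 against 23.3 CPM in control). Tnfsf9 (1.33 ± 0.19), Zfp36 (0.67 ± 0.10), Tnfaip3 (0.42 ± 0.07) and Cd40lg (0.34 ± 0.08) passed from the lists.

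For Il22, a cytokine that acts on epithelium, 7 gut libraries had at least 20 detected cells. Of 6770 genes 0.871% passed edgeR's test (0.576% higher in Il22-detected cells, 0.295% lower) and no ligand did. The smallest edgeR adjusted p was 0.127 for Tnfsf8 (0.35 ± 0.11), followed by 0.145 for Lta (1.35 ± 0.44). Lta was higher in 6 of 7 libraries. Of these, the first colon lamina propria control, SI KO and colon epithelium control libraries had 1 Lta UMI each on the Il22-detected side. The SI control library had 2 there, and the colon lamina propria KO libraries had 6 and 8. The Tnfsf8 call appeared in 3 of 11 alternatives, among them without the first colon lamina propria KO library (0.48, adjusted p = 0.00261). Il22 itself reached 24030 CPM in CD3-low cells of a colon lamina propria KO library and at most 355 CPM in CD3-positive cells, and the part of free RNA in its detection was not tested.

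**Figure D5:**
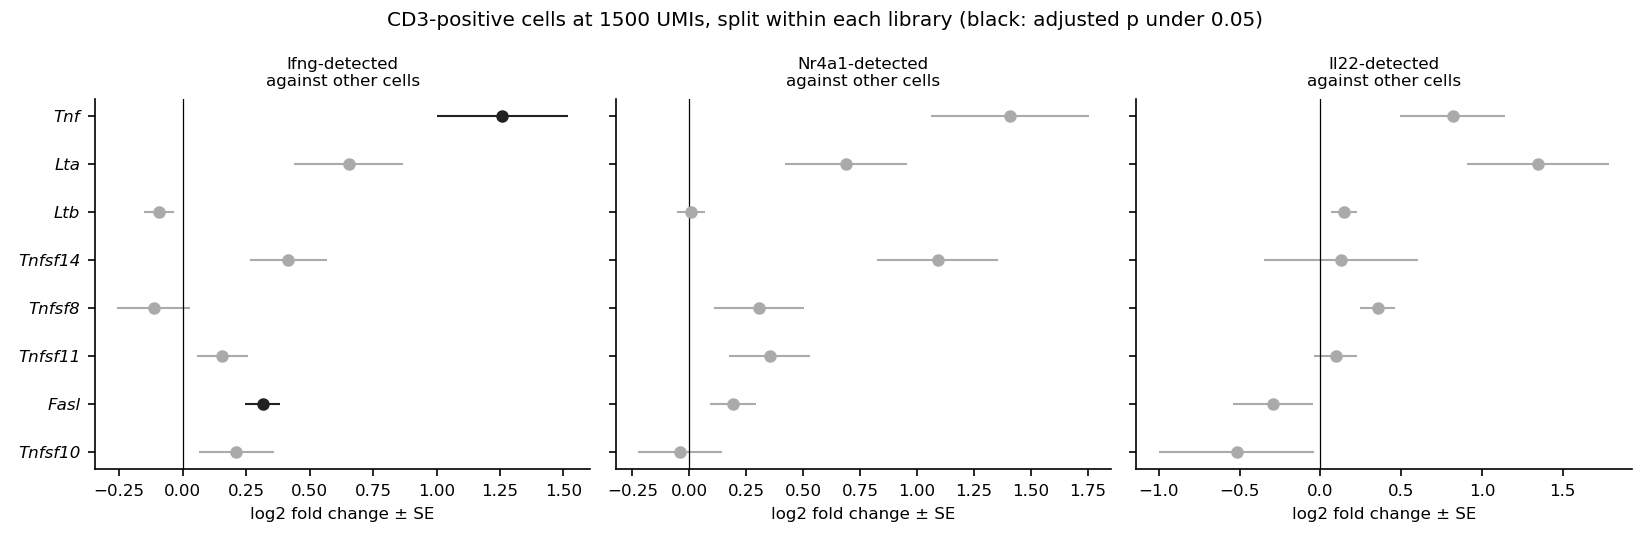
Log2 fold changes (horizontal axis, points, with SE bars) of the 8 ligands between CD3-positive cells with and without a UMI of Ifng, Nr4a1 and Il22 at 1500 UMIs, black where the edgeR adjusted p was under 0.05. Tnf (1.26) and Fasl (0.31) are black for Ifng, and no ligand is black for Nr4a1 or Il22.

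Detection of pairs of ligands in the same CD3-positive cell at 1500 UMIs was described by pooled cells of a tissue. Lta was detected in 5.75% of Tnf-detected cells and 3.16% of other cells of colon epithelium, in 0 of 50 Tnf-detected cells (up to 6% allowed) and 0.754% of other cells of SI, in 2.63% against 1.28% in colon lamina propria and in 6.37% (13 of 204) against 1.20% in spleen. Tnfsf11 was detected in 15.5% of Tnfsf8-detected and 8.27% of other cells of colon epithelium, 14.0% against 7.07% in SI, 26.7% against 16.6% in colon lamina propria and 5.53% against 2.73% in spleen. Fasl was not more often detected with Tnfsf8, at 18.8% against 18.8%, 14.4% against 22.3%, 23.9% against 26.8% and 3.84% against 5.93% in the same order of tissues. Within single libraries, which pooling can blur, the share of cells with Tnfsf11 was 1.301 to 2.77 times as high in Tnfsf8-detected as in other cells, above 1 in 12 of 12 libraries. For Fasl with Tnfsf8 this ratio was 0.594 to 1.03 and below 1 in 11 of 12 libraries. For Lta with Tnf it was above 1 in 7 and below 1 in 4 of the 11 libraries with at least 20 Tnf-detected cells. Cells of a library are not replicates, and no test was made.

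Genes whose levels over the 12 libraries were most like a ligand's were found by the root mean square of the difference in centred log2 CPM, among 6550 genes. Tnfsf8 was closest to Bcl2l11 (0.21), Ell2 (0.30) and Kdm2b (0.33), Fasl to Ehd1 (0.21), Bcl2a1b (0.26) and Lilrb4a (0.30), and Tnfsf11 to Nfil3 (0.40), Il21r (0.42) and Fam110a (0.42). Ltb was closest to Dars, Cbfb and Smarcc1 (0.15 each). Tnf was closest to Pelo (0.49), its chromosomal neighbour Lta (0.50) and Eml2 (0.51). Libraries share tissue, replicate number and depth, and the ligands below 20 CPM on average (Lta, Tnfsf10, Tnfsf14) were not searched for.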

How the data were processed

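Single-cell 3' RNA was measured in 12 libraries. The deposited values are counts of UMIs per gene and cell, whole numbers made by the authors with the 10x Chromium 3' version 2 kit per the labels' protocols. Cell Ranger 2.0.2 and genome build mm10 appear in the submitters' processing notes, and the sources used here do not give how cells and genes were filtered. A deposited cell table gave the library and batch of each cell (unit other), and its 2 columns of genotype and tissue were not used, since groups came from the labels. No cell was removed and no doublet caller was run, so doublets of CD3-positive and other cells are not separated. The genes Trac, Trbc1 and Trbc2 were not used here, and 1 planned split of the cells is not reported here.

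UMIs were summed per library and cell class. edgeR 4.0.16 (R 4.3.3) kept genes with filterByExpr, scaled libraries by TMM (factors 0.847 to 1.14), and tested with glmQLFit (robust) and glmQLFTest, with Benjamini-Hochberg adjustment at 0.05. SEs were obtained as |log2 fold change| over the root of the F statistic. Genotype was fitted in 8 libraries of spleen and colon lamina propria and over 6 pairs, tissue in all 12, and CD3-low and split classes with the library as a term where a side held at least 20 cells. Splits and shares used cells thinned to 1500 UMIs (seed 1). DESeq2 1.42.0, other filters, scalings and cell classes, and each library left out were alternatives. Values were computed with Python 3.11.15, numpy 2.4.6, pandas 2.3.3 and scipy 1.17.1, and plots drawn with matplotlib 3.10.9. Fits were tested on simulated data. CPM carry exact Poisson, ratios exact conditional and shares exact binomial (Clopper-Pearson) 95% intervals, and a floor of 3 counts, all covering counting error only.

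The replicate number equalled the batch for all 32763 cells, and same-numbered libraries deviated together from their group means (correlations 0.222 to 0.418 over 6 pairs of groups), so the numbers pair the samples. The main genotype and tissue fits did not include these numbers, and fits with a replicate block were alternatives. The ligands and the gene lists were chosen with earlier results of these data known. Named are the 8 ligands and, per pathway list and comparison, up to 3 genes of smallest p among those called.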

Additional observations from a re-analysis of the deposited data

Results flagged for a closer look

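The 892 cells with 2 CD3 UMIs stood outside the comparisons, and each ligand was above the limit that a count of 0 allows there (1.82 CPM). Their level was 38.2 CPM for Tnf (95% interval 29.3 to 48.9), 43.0 CPM for Lta (33.6 to 54.3) and 877 CPM for Ltb. It was 281 CPM for Tnfsf8, 12.1 CPM for Tnfsf10, 115 CPM for Tnfsf11, 27.3 CPM for Tnfsf14 and 122 CPM for Fasl. The Lta level lay between the medians of CD3-low (85.5 CPM) and CD3-positive libraries (9.84 CPM), as did those of Tnf (55.8 and 16.0 CPM), Fasl (33.2 and 142 CPM) and Tnfsf10 (5.82 and 13.3 CPM). The other 4 ligands lay above both medians, which in CD3-low and CD3-positive libraries were 823 and 626 CPM for Ltb, 139 and 183 CPM for Tnfsf8, 52.6 and 68.0 CPM for Tnfsf11 and 26.3 and 16.0 CPM for Tnfsf14. The 892 cells were pooled over all libraries, while each median weighs the libraries equally. These measures are unlike, so lying between or above the medians does not place these cells relative to the 2 classes. No group of libraries was large enough for a check of single libraries that stand apart.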

How the results depend on the processing

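Of 1085 fold changes of single ligands under alternatives, 986 kept their direction and side of the threshold, 33 lost a call, 20 gained one and 46 changed sign. The cause of the changes was not tested. Sign changes at small values were as follows on the log2 scale. For KO against control over the 6 pairs, Fasl gave 0.0094 with 5 or more CD3 UMIs and 0.045 in thinned cells. For colon lamina propria against spleen, Tnf gave 0.0091 in thinned cells and 0.15 in replicate number 2 only, and Lta -0.60 over all cells. For SI against colon lamina propria, all cells gave 0.24 for Tnf, 0.52 for Lta and -0.00297 for Tnfsf14, and replicate number 2 only gave -0.084 for Ltb. Ltb in colon epithelium against colon lamina propria was -0.096 in replicate number 2 only. In the splits, Tnfsf11 was -0.018 for Ifng with all UMIs of each cell and -0.017 for Il22 with no expression filter, and Ltb was -0.025 for Nr4a1 with no filter and -0.054 with all UMIs.

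Leaving out each library in turn gave sign changes within these ranges. Over the 6 pairs they were -0.063 to 0.26 for Tnfsf10, -0.031 to 0.17 for Tnfsf14 and -0.13 to 0.066 for Fasl. For colon lamina propria against spleen they were -0.34 to 0.15 for Tnf and -0.34 to 0.27 for Lta, and for SI against colon lamina propria -0.29 to 0.19 for Tnf and -0.12 to 0.14 for Tnfsf14. In the splits they were -0.089 to 0.20 for Tnfsf11 and -0.40 to 0.74 for Tnfsf14 (Il22), and -0.011 to 0.060 for Ltb and -0.18 to 0.14 for Tnfsf10 (Nr4a1).

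Numbers of genes called moved too. With no expression filter they were 83 for KO against control in colon lamina propria, 70 in spleen, 68 for the difference between these tissues, 6 over the 6 pairs, 35 for SI and 188 for Il22. DESeq2 called 3 in spleen, 2 for the difference, 3 over the 6 pairs, 103 for SI, 35 for Il22 and 52 for Nr4a1. In replicate number 2 only, 2435 genes were called for colon lamina propria against spleen and 1360 for colon epithelium. SI gave 5 genes over all cells and 10 in thinned cells. With all UMIs of each cell, 1522 genes were called for Ifng, 282 for Il22 and 721 for Nr4a1. Leaving out libraries gave 0 to 1 in each genotype test, 0 to 63 for SI, 230 to 2843 for colon epithelium and 38 to 75 for Il22. Over all cells, 7 ligands in place of 4 had an SI ratio of KO to control whose interval left out 1.

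With the replicate block, no ligand gained or lost a call. Over the 6 pairs the blocked values were 0.23 for Tnf, 0.44 for Lta and 0.0099 for Fasl, the last with its sign changed. The block gave 5046 genes for colon lamina propria against spleen, 1761 for colon epithelium and 0 for SI. Depth limits the CD3-low side most, where Tnfsf10 had 0 UMIs in 2 libraries and 1 to 3 UMIs in 6 others.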
